A study of Rattus norvegicus with 43 samples.

Results

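The genes described here are 7 acute phase proteins of the liver, Lcn2, A2m, Orm1, Hp, Hpx, Crp and Lbp, and the transcription factors Cebpb and Cebpd, which encode C/EBP beta and C/EBP delta. They are 9 of the 10649 genes tested, and each was chosen as the probe set that lists that gene symbol alone, with the highest mean log2 signal where a gene had more than 1. The 9 genes had 11 such probe sets, 3 of them for Cebpd, and all 9 passed the filter on low signals. Their levels were followed over 5 groups with 3 male Sprague Dawley rats in each, on Affymetrix RG230-2 arrays, which carry 31099 probe sets. The groups were liver in situ (a lobe tied off before the perfusion of the same rat), rat primary hepatocytes (RPH) in the pellet after isolation (0 h), and RPH after 4, 24 and 48 h on collagen-coated plates. The plated cells were in William's E medium with insulin, transferrin and dexamethasone, a synthetic glucocorticoid, with fetal bovine serum during attachment only, so culture, medium and time changed together and cannot be told apart. Each rat gave 1 sample to every group, and each sample was run on up to 3 technical arrays (43 arrays, 15 samples).

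The acute phase response is the change in plasma proteins that the liver makes during infection or injury. Interleukin-6 (IL-6) acts on hepatocytes through the receptor subunit gp130 and the factor STAT3, and interleukin-1 (IL-1) and tumor necrosis factor act through NF-kB. C/EBP beta and delta take part in both arms, and glucocorticoids enhance many of the responses. The proteins that increase are called positive and those that decrease, such as albumin, negative. Species differ in which proteins respond most: A2m is a major acute phase protein of the rat, whereas Crp circulates at a high level in healthy rats and responds weakly there, unlike in humans.

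The upstream sequences of 3 members with different time courses are shown for the letters typical of sites of these factors. RefSeq promoter windows (250 bases before to 50 after the start, GRCr8 build) were held for 5 of the 9 genes: Lcn2, Orm1, Hpx, Crp and Cebpb. A2m, Hp, Lbp and Cebpd were not in that table. The 250 upstream bases of 3 genes are printed 5′ to 3′ on the strand of the gene, with the matches described below in capitals.
Lcn2 promoter, chr3:36081781-36082030, minus strand: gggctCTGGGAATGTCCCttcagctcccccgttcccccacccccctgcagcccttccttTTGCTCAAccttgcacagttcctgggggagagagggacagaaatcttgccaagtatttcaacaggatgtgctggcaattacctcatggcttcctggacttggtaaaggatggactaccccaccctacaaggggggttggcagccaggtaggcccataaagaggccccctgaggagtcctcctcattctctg
Crp promoter, chr13:87693812-87694061, plus strand: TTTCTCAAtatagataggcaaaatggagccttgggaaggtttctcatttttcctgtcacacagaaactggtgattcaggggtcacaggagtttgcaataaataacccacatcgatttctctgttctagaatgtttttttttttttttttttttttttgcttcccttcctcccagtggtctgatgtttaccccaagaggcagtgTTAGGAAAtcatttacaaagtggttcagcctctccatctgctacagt
Cebpb promoter, chr3:176816755-176817004, plus strand: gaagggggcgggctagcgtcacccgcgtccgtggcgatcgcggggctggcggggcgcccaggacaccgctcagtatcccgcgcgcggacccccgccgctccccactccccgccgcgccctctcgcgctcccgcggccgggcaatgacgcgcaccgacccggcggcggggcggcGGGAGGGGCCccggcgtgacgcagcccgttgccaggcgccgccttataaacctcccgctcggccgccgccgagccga
Both strands of the 300-base windows were searched for TTNNGNAA (C/EBP), TTCNNNGAA (STAT3), CTGGGAA (the core of the type II IL-6 response element) and, for NF-kB, GGGA and CC set apart by 4 bases of any kind. Lcn2 had 1 C/EBP match, 1 CTGGGAA match and 2 NF-kB matches, of which the last 3 overlap each other. Crp had 2 C/EBP matches, and Cebpb had 1 NF-kB match. Of the other 2 windows, Orm1 had 2 C/EBP matches and 1 NF-kB match, and Hpx had 2 C/EBP matches. The STAT3 letters were found in none of the 5 windows. Of 33469 rat promoters of the same length, 41.3% held the C/EBP letters, 8.87% the STAT3 letters, 11.3% CTGGGAA and 19.3% the NF-kB letters, so a match is common and describes these letters only.

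Levels are MAS5 signals, a linear intensity scaled to a 2% trimmed mean of 500 on every array. Apart from the sums over marker lists, no level of a probe set is set against that of another. Changes are log2 fold changes with the standard error (SE) of a limma fit to all 15 samples, with calls made where the adjusted p (Benjamini-Hochberg, over all 10649 genes) was under 0.05. Array medians were 108 to 145 in liver, 87.4 to 116 at 0 h, 79.4 to 114 at 4 h, 84.1 to 111 at 24 h and 85.7 to 112 at 48 h. The ratio of 3′ to 5′ actin probe sets, a sign of RNA and label quality, ranged over rats from 3.21 to 6.96 in liver, 3.16 to 4.30 at 0 h, 2.85 to 3.12 at 4 h, 2.23 to 2.50 at 24 h and 1.95 to 2.46 at 48 h. Its part in the changes was not tested. The livers of rats 1 and 2 did not resemble the hepatocytes of their own rat more than those of the other. Without both, the calls vs. liver of Cebpb at 4 and 48 h and of Hp and Hpx at 48 h were lost (log2 0.83, -0.51, -0.35 and -0.40), and no other call of a member was. In bulk RNA, fewer cells of a type and less RNA per cell cannot be told apart. The 8 hepatocyte markers measured, among them Alb, Ttr and Hnf4a, had summed signals of 180300 to 195500 in liver, 165400 to 195400 at 0 h, 159800 to 185600 at 4 h, 117600 to 143100 at 24 h and 98660 to 119700 at 48 h. The markers differed: Cyp2e1 averaged 35440 in liver and 163 at 48 h, and Cps1 32010 and 17200. Alb averaged 36530 and 29640, Ttr 33950 and 24290, and Tat 3363 and 4483. At 48 h vs. liver 5 of the 8 were called lower and 0 higher, against 22.6% and 25.4% of all genes.

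**Figure D1:**
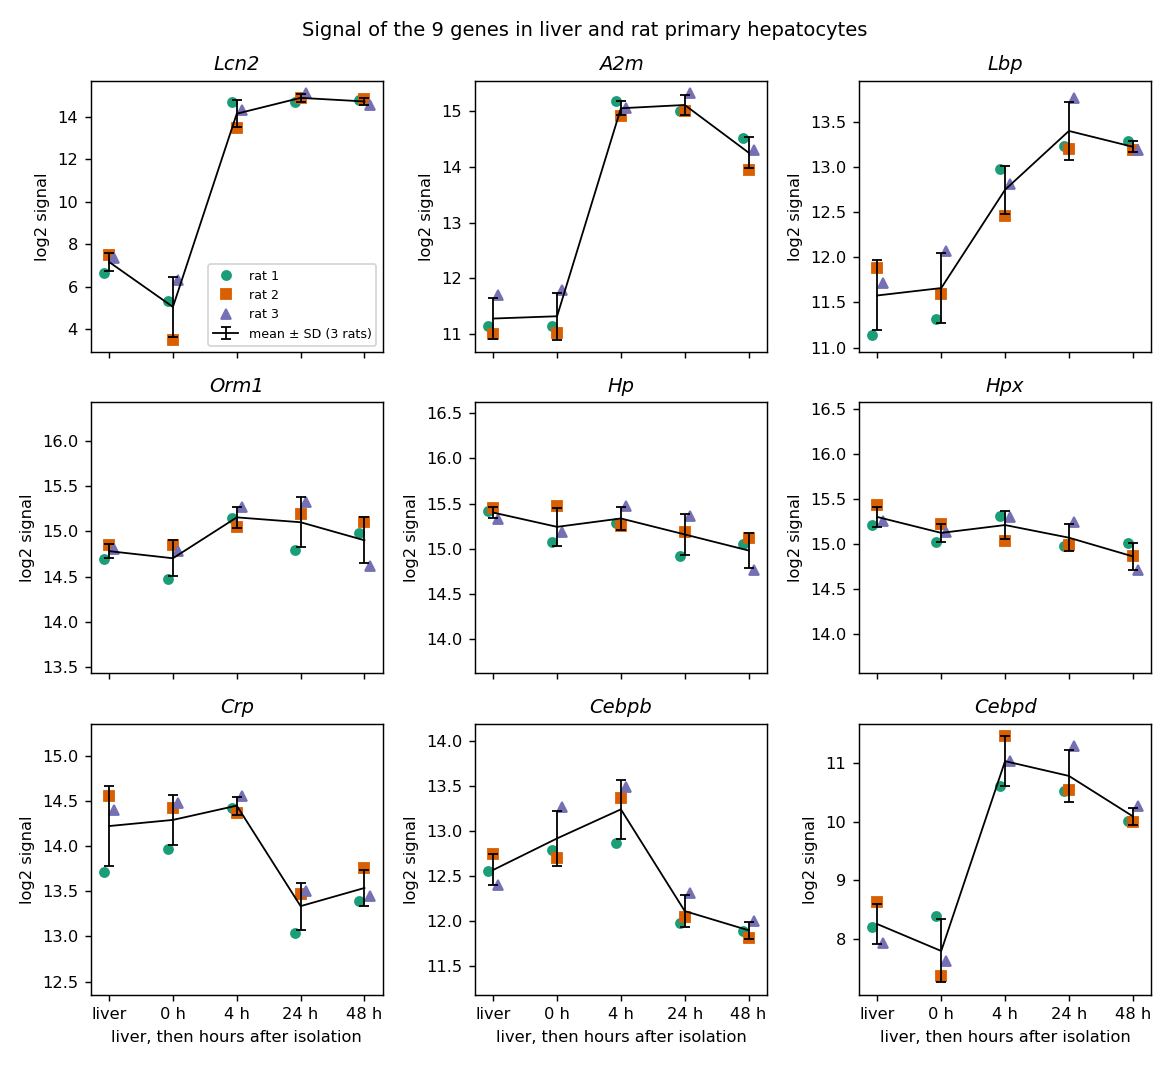
Log2 signal (vertical axis, a span of at least 3 log2 units in each panel) of the 9 genes in liver and in RPH at 0, 4, 24 and 48 h, with a symbol for each rat and a black line for the mean ± SD of 3 rats. Lcn2, A2m and Cebpd lie far above liver at 4, 24 and 48 h in all rats, Crp and Cebpb lie lower at 24 and 48 h than at 4 h, and Orm1, Hp and Hpx stay within 1.37-fold over the group means.

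Lcn2, A2m and Lbp were higher in cultured RPH than in liver at every time in culture. Lcn2 (GRCr8 chr3:36078432-36081851) encodes lipocalin 2, which binds bacterial siderophores and so withholds iron. Its signals in rats 1, 2 and 3 were 102, 182 and 162 in liver, 40.2, 11.5 and 79.98 at 0 h, 26380, 11240 and 20210 at 4 h, 26700, 29900 and 35280 at 24 h, and 28520, 29260 and 23800 at 48 h. All samples in culture were thus far above all liver and 0 h samples, and rat 2 was the lowest at 4 h. The log2 fold change vs. liver was 6.98 at 4 h (SE 0.53, adjusted p = 9.19e-07), 7.72 at 24 h (adjusted p = 2.12e-07) and 7.55 at 48 h (adjusted p = 1.74e-07). Liver signals lay near the array medians and 0 h signals below them, and single 0 h arrays read from 3.09 to 239, so no fold against 0 h is given for the linear signal. The change at 4 h vs. 0 h, 9.09, therefore depended on how dim values were treated, and was 7.82 where 32 was added to every signal before log2.

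A2m (chr4:156570163-156619870) encodes alpha-2-macroglobulin, a broad protease inhibitor. Its signals in the 3 rats were 2250, 2053 and 3315 in liver, 2255, 2077 and 3561 at 0 h, 37150, 31030 and 34270 at 4 h, 33090, 32930 and 41020 at 24 h, and 23420, 15880 and 20280 at 48 h. Liver and 0 h overlapped, 4 and 24 h overlapped, and the 48 h samples lay between these 2 levels in every rat. Set against liver, the log2 fold change was 3.78 at 4 h (SE 0.23, adjusted p = 2.48e-07), 3.84 at 24 h (adjusted p = 8.13e-08) and 2.98 at 48 h (adjusted p = 5.18e-07).

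Lbp (chr3:167373786-167400941) encodes lipopolysaccharide-binding protein, which hands bacterial endotoxin to CD14. Its signals in the 3 rats were 2257, 3770 and 3360 in liver, 2542, 3088 and 4315 at 0 h, 8065, 5631 and 7177 at 4 h, 9605, 9434 and 13940 at 24 h, and 10040, 9314 and 9374 at 48 h. The 4 h samples lay between the earlier and the later ones without overlap. On the log2 scale, the change vs. liver was 1.17 at 4 h (SE 0.24, adjusted p = 0.00161), 1.82 at 24 h (adjusted p = 5.21e-05) and 1.65 at 48 h (adjusted p = 0.000104).

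Orm1, Hp and Hpx had signals between 22800 and 45590, on arrays whose highest deposited signal was 61210, and none of them passed the test at 4 or 24 h vs. liver. Orm1 (chr5:81788509-81791661) encodes orosomucoid (alpha-1-acid glycoprotein), a carrier of drugs and lipids. Its signals in the 3 rats were 26500, 29450 and 28600 in liver, 22800, 29470 and 28180 at 0 h, 36240, 33810 and 39600 at 4 h, 28350, 37370 and 41000 at 24 h, and 32330, 35250 and 25130 at 48 h. At 4 h all samples were above all liver and 0 h samples, with a log2 fold change vs. liver of 0.37 (SE 0.17, adjusted p = 0.0962). This gene depended on the scaling, since with quantile normalization it was called higher than liver at 4, 24 and 48 h, with log2 fold changes of 0.41 (adjusted p = 0.0186), 0.62 (adjusted p = 0.00146) and 0.59 (adjusted p = 0.00184).

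Hp (chr19:54449151-54453701) encodes haptoglobin, which binds free hemoglobin. Its signals in the 3 rats were 43860, 44710 and 41200 in liver, 34390, 45510 and 37200 at 0 h, 39830, 38880 and 45590 at 4 h, 31080, 37240 and 42250 at 24 h, and 34070, 35630 and 27810 at 48 h. Hpx (chr1:169344647-169352155) encodes hemopexin, which binds free heme. Its signals in the 3 rats were 37970, 44050 and 39200 in liver, 33190, 38200 and 35860 at 0 h, 40510, 33430 and 40210 at 4 h, 32250, 32480 and 38840 at 24 h, and 33020, 29920 and 26770 at 48 h. For both genes the 48 h samples lay below all liver samples, while the times before overlapped with liver. At 48 h vs. liver the log2 fold change was -0.42 for Hp (SE 0.16, adjusted p = 0.0447) and -0.44 for Hpx (SE 0.14, adjusted p = 0.0219), but it was 0.11 for Hp and 0.12 for Hpx after quantile normalization. The call of Hp was lost in 12 of 18 fits that left out a rat or a sample (log2 -0.47 to -0.31): without any 1 of the 3 rats, any 1 liver, the 0 h sample of rat 3, the 4 h sample of rat 1 or 2, the 24 h sample of rat 2, or the 48 h sample of rat 1 or 3. That of Hpx was lost in 6 of 18 (log2 -0.55 to -0.36): without any 1 of the 3 rats, the liver of rat 2, or the 48 h sample of rat 2 or 3. Whether signals in this range respond in proportion to RNA was not tested.

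Crp (chr13:87694062-87695978) encodes C-reactive protein, a pentraxin that binds phosphocholine on microbes and dying cells, and it was the only one of the 7 acute phase genes called lower at 24 h vs. liver. Its signals in the 3 rats were 13440, 24020 and 21660 in liver, 16020, 21980 and 22860 at 0 h, 21900, 21170 and 24150 at 4 h, 8409, 11340 and 11590 at 24 h, and 10780, 13900 and 11210 at 48 h. All samples at 24 h were below all liver, 0 h and 4 h samples, whereas at 48 h rat 2 slightly exceeded the liver of rat 1. Compared with liver, the log2 change was 0.23 at 4 h (SE 0.22, adjusted p = 0.426), -0.89 at 24 h (adjusted p = 0.00564) and -0.69 at 48 h (adjusted p = 0.0225). After median centring of the arrays the change vs. liver was -0.47 at 24 h and -0.29 at 48 h, and neither passed the test. The call at 48 h was also lost with quantile normalization, with only the 2 groups in the fit and at an adjusted p under 0.01. Without rat 2 the change at 24 h was -0.79, without rat 3 it was -0.88, and neither passed, and the call at 48 h was lost in 6 of 18 fits that left out a rat or a sample (log2 -0.64 to -0.52): without rat 2 or 3, the liver of rat 2 or 3, or the 48 h sample of rat 1 or 3.

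Of the 2 transcription factors, Cebpb (chr3:176817005-176818436) had its highest mean at 4 h and its lowest at 48 h, and Cebpd (chr11:98268856-98269994) was above liver at 4, 24 and 48 h. The signals of Cebpb in the 3 rats were 6005, 6869 and 5423 in liver, 7062, 6652 and 9857 at 0 h, 7481, 10520 and 11480 at 4 h, 4051, 4218 and 5072 at 24 h, and 3793, 3591 and 4091 at 48 h. The 4 h samples were above all liver samples, and the 24 and 48 h samples were below them. The log2 fold change vs. liver was 0.67 at 4 h (SE 0.19, adjusted p = 0.0125), -0.46 at 24 h (adjusted p = 0.0683, and 0.041 with the rat as a block, where 55% of all genes were called) and -0.67 at 48 h (adjusted p = 0.0123). The call at 4 h was lost without rat 2 (0.70), without rat 3 (0.47) and without the 4 h sample of rat 3 (0.55). At 48 h it was lost without rat 1 (-0.67), without rat 2 (-0.54), without the liver of rat 2 (-0.58), and with each array centred on its median (-0.28).

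Cebpd was read with 3 probe sets. On the one with the highest mean, the signals in the 3 rats were 295, 396 and 246 in liver, 338, 166 and 198 at 0 h, 1558, 2798 and 2084 at 4 h, 1467, 1477 and 2488 at 24 h, and 1037, 1020 and 1226 at 48 h. Every sample in culture was above every liver and 0 h sample, and all 48 h samples were below all 24 h samples. Set against liver, the log2 fold change was 2.77 at 4 h (SE 0.30, adjusted p = 1.3e-05), 2.52 at 24 h (adjusted p = 2.19e-05) and 1.83 at 48 h (adjusted p = 0.000263). A second probe set of Cebpd had signals of 27.4, 138 and 67.7 in the 3 livers, near or below the array medians, 49.3, 44.2 and 79.7 at 0 h, 942, 1216 and 965 at 4 h, 865, 868 and 996 at 24 h, and 528, 856 and 626 at 48 h. It was called higher than liver at all 3 times (adjusted p of at most 4.32e-05 over all probe sets), and the size of its change rests on the dim liver signals. The third was dim, with group means between 13.8 and 32.8, and did not pass the filter.

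**Figure D2:**
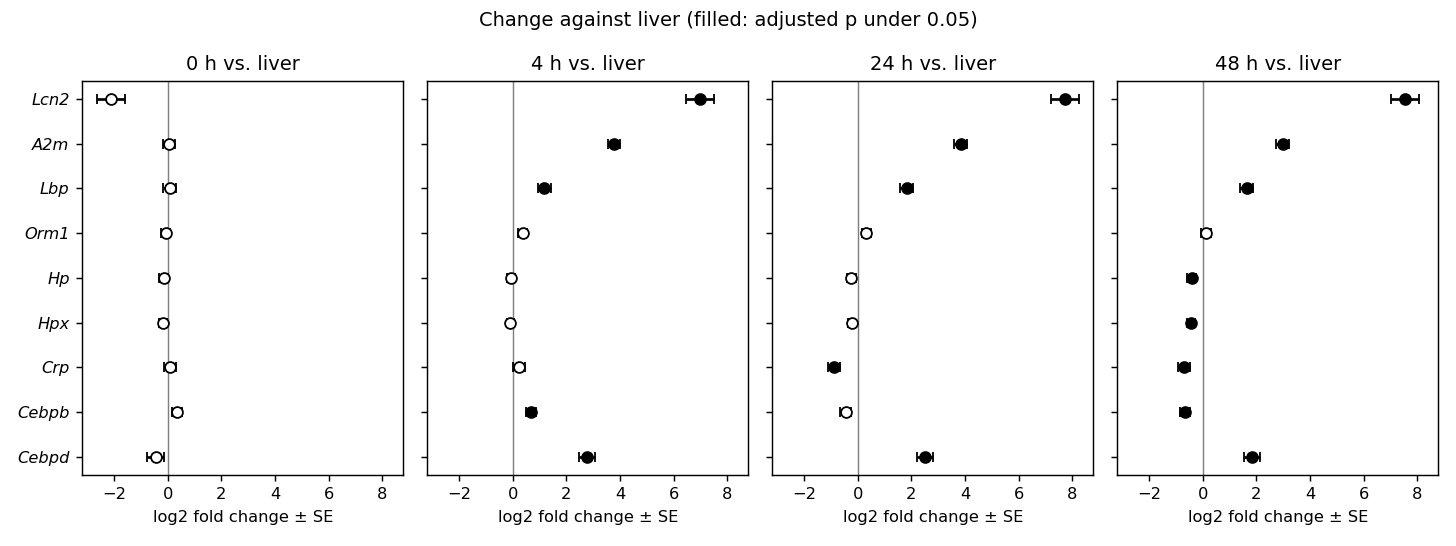
Log2 fold change vs. liver (horizontal axis, ± SE of the limma fit, 3 rats per group) of the 9 genes at 0, 4, 24 and 48 h, with filled points for adjusted p under 0.05. The number of filled points is 0 at 0 h, 5 at 4 h, 5 at 24 h and 8 at 48 h.

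In the pellets taken right after isolation none of the 9 genes passed the threshold. At 0 h vs. liver 0 were called by limma, against 0.573% of all genes (0.141% higher and 0.432% lower), and 1 had an unadjusted p under 0.05. That gene was Lcn2, whose samples did not overlap (as for 18.9% of all genes) and whose change was -2.11 on the log2 scale (SE 0.53, adjusted p = 0.107). The size of this change was unstable: it was -1.14 with 32 added to every signal and -0.73 with 1 technical array per sample, and it ranged from -2.75 to -1.18 when a rat or a sample was left out, with -1.18 without rat 2 and -1.35 without the 0 h sample of rat 2. Lcn2 was the only member with non-overlapping samples in this comparison. Neutrophils also express Lcn2, and the summed signal of their markers S100a8 and S100a9 ranged from 143 to 579 in liver, 46.5 to 72.7 at 0 h, 25.7 to 46.8 at 4 h, 34.4 to 65.8 at 24 h and 20.4 to 39.8 at 48 h. These were the 2 measured of 10 markers written. Neither was called at 0 h vs. liver and both were called lower at 4, 24 and 48 h, where Lcn2 was high. Their part in the difference of Lcn2 at 0 h was not tested.

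The 5 genes called at 4 h vs. liver, all of them higher, were Lcn2, A2m, Lbp, Cebpb and Cebpd, where 46.2% of all genes were called, 16.4% higher and 29.8% lower. Samples of 6 members did not overlap between 4 h and liver, as for 55.3% of all genes. Samples of 6 members were also apart from liver at 24 h (58% of all genes) and of 7 at 48 h (59.2%). At 24 h, 5 were called against 47.6% of all genes: Lcn2, A2m, Lbp and Cebpd were higher (23.7% of all genes) and Crp was lower (23.9%). At 48 h, 8 were called against 47.9% of all genes, with the same 4 genes higher (25.4%) and Hp, Hpx, Crp and Cebpb lower (22.6%). The split over all genes depended on the scaling: with arrays centred on their medians, 2881 genes were higher and 1347 lower than liver at 4 h (1745 and 3178 without centring), 4232 and 1459 at 24 h (2524 and 2544) and 4317 and 1445 at 48 h (2700 and 2406). With so many genes called, the counts alone do not set the members apart, and the changes were large for some members only. The median log2 fold change of the 9 members was 0.67 at 4 h, 0.32 at 24 h and 0.12 at 48 h, against -0.25, 0.00 and 0.04 over all genes. Set against the 0 h pellets instead, 6 members were called at 24 h (41.5% of all genes, 24.1% higher and 17.3% lower) and 6 at 48 h (44.1%, 26.6% higher and 17.5% lower), in both cases Lcn2, A2m, Lbp and Cebpd higher and Crp and Cebpb lower. These comparisons share their liver or 0 h samples, so they are not separate evidence.

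**Figure D3:**
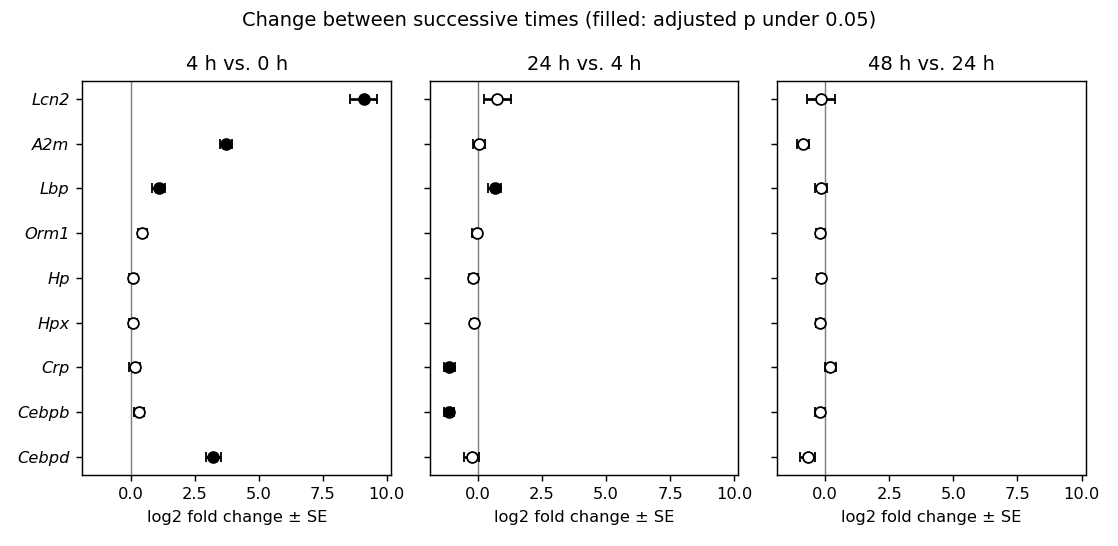
Log2 fold change between successive times (horizontal axis, ± SE of the limma fit, 3 rats per group) of the 9 genes, with filled points for adjusted p under 0.05. Filled points number 4 at 4 h vs. 0 h, 3 at 24 h vs. 4 h and 0 at 48 h vs. 24 h.

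Lcn2, A2m, Lbp and Cebpd were already higher at 4 h than at 0 h. At 4 h vs. 0 h, 4 members were called, all higher, against 38.9% of all genes called, 16.3% higher and 22.7% lower. Samples of 5 members did not overlap (47.2% of all genes). The log2 fold change was 9.09 for Lcn2 (SE 0.53, adjusted p = 1.21e-07), 3.74 for A2m (SE 0.23, adjusted p = 2.44e-07), 1.09 for Lbp (SE 0.24, adjusted p = 0.00318) and 3.23 for Cebpd (SE 0.30, adjusted p = 4.58e-06). Without rat 1 the call of Lbp was lost (0.80). Orm1 had 0.45 (SE 0.17, adjusted p = 0.0563), which passed with the rat as a block (adjusted p = 0.0414), so that 5 members were then called against 46.5% of all genes. The call of Orm1 depended on the setting. It passed in 7 of 13 alternatives, the block among them, and in 2 of 18 fits that left out a rat or a sample. Cebpb had 0.32 (SE 0.19, adjusted p = 0.211), and its 0 h signals overlapped those at 4 h. Measured on the log2 scale from 0 h, the mean rise at 4 h was 98.4% of that at 24 h for A2m, 108% for Cebpd and 62.6% for Lbp. The A2m signals at 4 and 24 h, 31030 to 41020, lay where a response in proportion to RNA was not tested. For Lcn2, with its dim 0 h signals, such a share has no firm base, and its mean linear signal was 18160 at 4 h and 30420 at 24 h.

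Between 4 and 24 h 1 member was called higher and 2 were called lower. At 24 h vs. 4 h, 3 were called, against 39.8% of all genes, and samples of 4 did not overlap (49.9%). Lbp was higher, by 0.65 on the log2 scale (SE 0.24, adjusted p = 0.0463), where 26.3% of all genes were higher. Its call was lost in 12 of 18 fits that left out a rat or a sample, with values from 0.47 to 0.75: without rat 2 or 3, the liver of rat 3, the 0 h sample of rat 2, the 4 h sample of rat 2 or 3, or any 1 sample at 24 or 48 h. It was also lost in 6 of 13 other alternatives (0.61 to 0.71). These were median centring, no filter on low signals, every probe set tested and 1 technical array. The others were only the 2 groups in the fit and an adjusted p under 0.01. Crp was lower, at -1.11 on the log2 scale (SE 0.22, adjusted p = 0.0016), as was Cebpb with -1.13 (SE 0.19, adjusted p = 0.00053), where 13.5% of all genes were lower. Both falls were seen in all 3 rats. Lcn2 had 0.74 (SE 0.53, adjusted p = 0.287) with non-overlapping samples, A2m 0.06 (SE 0.23, adjusted p = 0.868) and Cebpd -0.25 (SE 0.30, adjusted p = 0.547).

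From 24 to 48 h no member passed, against 4.28% of all genes (2.51% higher and 1.77% lower), and 2 had an unadjusted p under 0.05 in limma. These were A2m and Cebpd, the 2 members whose 24 and 48 h samples did not overlap (22.7% of all genes). The log2 fold change of A2m was -0.86 (SE 0.23, adjusted p = 0.060), and with the rat as a block it passed (adjusted p = 0.0122), where 7.15% of all genes were called. That of Cebpd was -0.69 (SE 0.30, adjusted p = 0.286, and 0.253 with the block). For Lcn2 the difference was -0.17 with a 95% confidence interval of -1.31 to 0.97, and for Lbp -0.18 with an interval of -0.70 to 0.35. The interval of A2m, -1.36 to -0.35, overlaps both of these, and the differences between the genes were not tested.

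**Figure D4:**
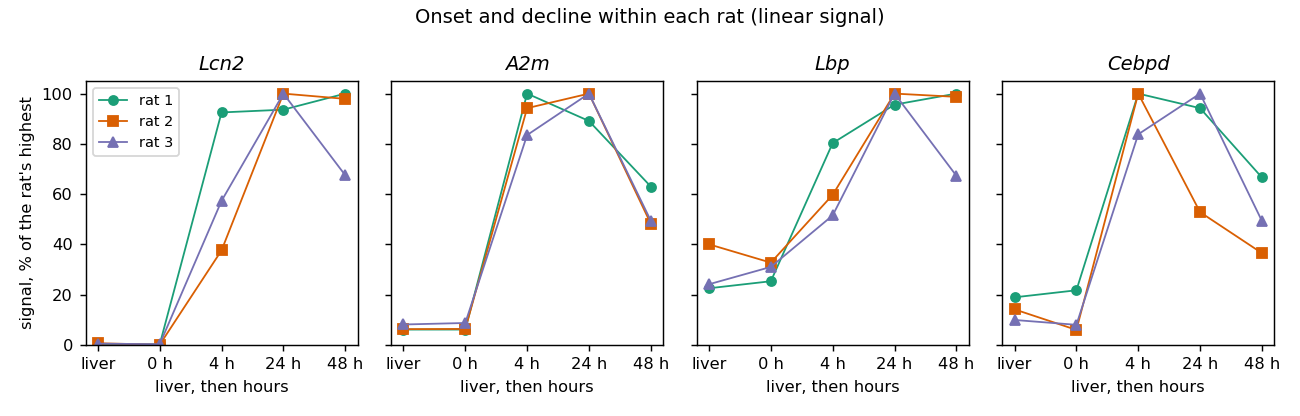
Linear signal of Lcn2, A2m, Lbp and Cebpd in each rat, as a percentage of the highest signal of that rat and gene (vertical axis), over liver and 0, 4, 24 and 48 h. At 48 h A2m stood at 48.2 to 63.0% and Cebpd at 36.5 to 66.6% of the highest in the 3 rats, against 67.5 to 100% for Lcn2 and 67.3 to 100% for Lbp. The lowest values of Lcn2 and Lbp at 48 h were those of rat 3.

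Set on the scale of each rat's own highest signal, A2m and Cebpd rose and then declined, and Lcn2 and Lbp rose with less decline. Cebpd was read here on its probe set with the highest mean. At 4 h Lcn2 stood at 92.5%, 37.6% and 57.3% of its highest in rats 1, 2 and 3, and was highest at 48 h in rat 1 and at 24 h in the other 2 rats. A2m stood at 100%, 94.2% and 83.5% at 4 h in these rats and at 63.0%, 48.2% and 49.4% at 48 h. Lbp stood at 80.3%, 59.7% and 51.5% at 4 h, and at 100%, 98.7% and 67.3% at 48 h. Cebpd stood at 100%, 100% and 83.8% at 4 h and at 66.6%, 36.5% and 49.3% at 48 h. In rat 3 the log2 difference of 48 h from 24 h was -0.57 for both Lcn2 and Lbp. It was also -0.71 for Orm1, -0.60 for Hp and -0.54 for Hpx, but -0.05 for Crp. In rats 1 and 2, Lcn2, Lbp, Orm1, Hp and Hpx had values from -0.12 to 0.19. The arrays of the 48 h sample of rat 3 read 29640, 25770 and 17640 for Lcn2. Whether this sample read low as a whole was not tested. On the second probe set of Cebpd the 3 rats had 865, 868 and 996 at 24 h and 528, 856 and 626 at 48 h. That change was -0.47 on the log2 scale (SE 0.43, limma adjusted p = 0.756 over all probe sets). On group means, the level at 48 h was 89.0% of the peak for Lcn2, 88.6% for Lbp, 55.3% for A2m, 52.3% for Cebpd, 53.1% for Crp and 39.5% for Cebpb. The signals of Lcn2 at 24 and 48 h and of A2m at 4 and 24 h lay where a response in proportion to RNA was not tested. The differences between genes in the decline to 48 h were not tested.

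Across the 15 samples, which hold 5 groups and 3 rats and are not independent, Lcn2, A2m, Lbp and Cebpd had log2 signals with a Pearson r of 0.82 to 0.96 with each other. Hp and Hpx had 0.88 with each other, and Crp and Cebpb 0.81. Genes most like each member over these samples were Tpm4 (0.99) and Tnfrsf12a (0.98) for Lcn2, Por (0.99) and Wdr4 (0.98) for A2m, and Cep164 and Nt5c2 (both 0.98) for Lbp. For Cebpd they were Tubb6 and Snhg4 (both 0.97), for Cebpb Stard4 and Lrp3 (both 0.94), and for Crp Adap2 and Bhmt (both 0.93). For Hp they were Apoe (0.99) and COX1 (0.95), for Hpx Ttr (0.95) and COX1 (0.94), and for Orm1 Ints15 (0.89) and Rpl27a (0.87).

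Other genes of the response followed several courses. Among 19 other positive acute phase genes measured (of 28 written), 4 were higher and 1 lower at 4 h vs. liver, 2 higher and 7 lower at 24 h, and 1 higher and 12 lower at 48 h, with medians of -0.03, -0.29 and -0.63 against -0.25, 0.00 and 0.04 over all genes. Of all genes 16.4% were higher and 29.8% lower at 4 h, 23.7% and 23.9% at 24 h, and 25.4% and 22.6% at 48 h. Il1rn encodes the IL-1 receptor antagonist, and its mean signal was 16.0 in liver, 54.5 at 0 h, 916 at 4 h, 340 at 24 h and 111 at 48 h. Its liver and 0 h means lay below the array medians and are dim. Mt2A encodes a metallothionein, which binds zinc, and averaged 2740, 1884, 31730, 13320 and 4309 in these groups. Fgb, the fibrinogen beta chain that forms clots, averaged 34170, 33190, 42600, 18750 and 7176, and was called lower with log2 fold changes vs. liver of -0.87 at 24 h (SE 0.19, adjusted p = 0.00209) and -2.25 at 48 h (adjusted p = 8.28e-07). Fga and Fgg, the other chains, were also called lower at 24 and 48 h. Pla2g2a, a secreted phospholipase, averaged 179 in liver and 16.3, 9.98, 5.98 and 4.05 at 0, 4, 24 and 48 h, so that its culture levels are dim.

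Of 12 negative acute phase genes measured (of 15 written), 0 were called at 0 h and 0 at 4 h vs. liver, while 7 were lower at 24 h and 9 at 48 h, with none higher at these times. Their medians were -0.16 at 4 h, -0.63 at 24 h and -1.01 at 48 h, against -0.25, 0.00 and 0.04 over all genes, and some, such as Alb and Ttr, also stand among the hepatocyte markers. Of all genes 0.432% were lower at 0 h, 29.8% at 4 h, 23.9% at 24 h and 22.6% at 48 h. Serpina6, the corticosteroid-binding globulin of plasma, averaged 16690 in liver, 16520 at 0 h, 14340 at 4 h, 1740 at 24 h and 133 at 48 h. Serpina7, the thyroxine-binding globulin, averaged 1896, 1817, 935, 42.6 and 104. Igf1, the growth factor the liver releases into blood, averaged 33130, 28430, 27190, 11790 and 6254, and Rbp4, the carrier of retinol, 37000, 32610, 31360, 15080 and 16530.

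**Figure D5:**
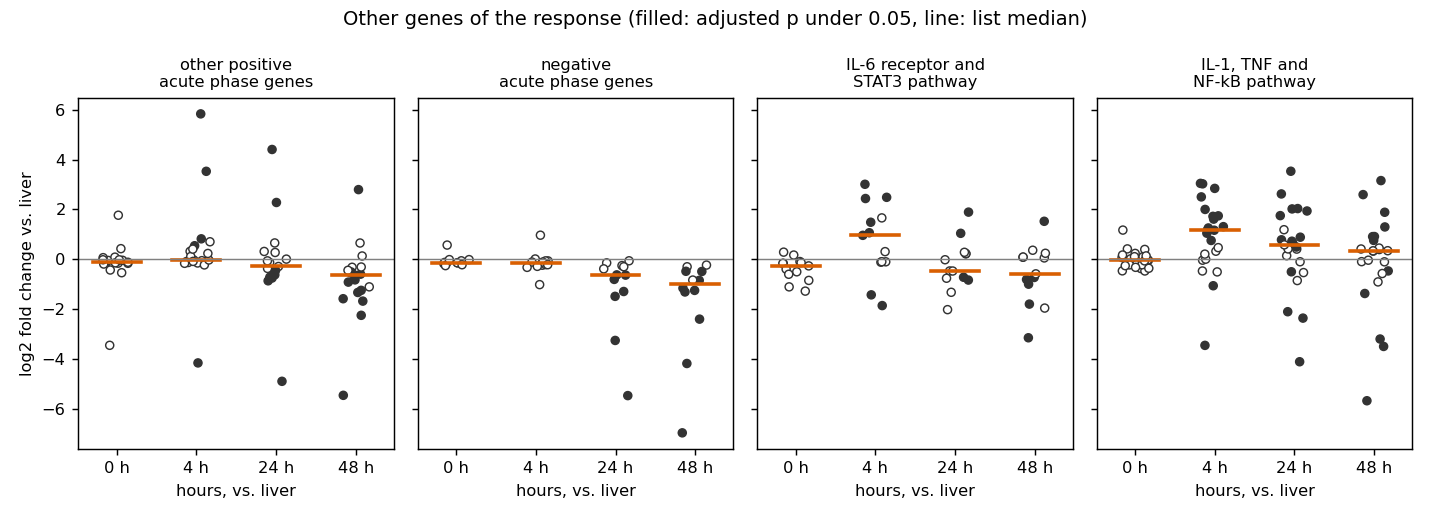
Log2 fold change vs. liver (vertical axis) at 0, 4, 24 and 48 h of the measured genes of 4 lists, 1 point per gene, filled for adjusted p under 0.05, with a line at the median of each list. The 12 negative acute phase genes have 0 filled points at 4 h and 9 at 48 h, all below 0, and the IL-6 and IL-1 lists have their highest medians, 0.96 and 1.17, at 4 h.

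Most of the higher calls among the IL-6 and STAT3 genes were at 4 h. Of 13 measured (of 19 written), 6 were higher and 2 lower at 4 h vs. liver, 2 and 2 at 24 h, and 1 and 5 at 48 h, with medians of 0.96, -0.47 and -0.59. Of all genes 16.4% were higher and 29.8% lower at 4 h, 23.7% and 23.9% at 24 h, and 25.4% and 22.6% at 48 h. The medians over all genes were -0.25, 0.00 and 0.04. Il6, the cytokine itself, averaged 42.0 in liver, 19.5 at 0 h, 236 at 4 h, 30.3 at 24 h and 25.3 at 48 h. All but the 4 h mean lay below the array medians, so the size of its change rests on dim signals. Stat3 averaged 1047, 1276, 5681, 3892 and 3014, and was still called higher at 48 h (log2 fold change 1.52, SE 0.23, adjusted p = 0.000106). Bcl3, a nuclear partner of NF-kB, averaged 461, 419, 3715, 949 and 490, and Tyk2, a kinase of the cytokine receptors, 1053, 941, 290, 638 and 600. Of 23 genes of the IL-1, tumor necrosis factor and NF-kB list (of 25 written), 14 were higher and 2 lower at 4 h, 11 and 4 at 24 h, and 7 and 5 at 48 h, with medians of 1.17, 0.58 and 0.34. Il1r1, the signalling receptor of IL-1, averaged 1257, 1348, 10270, 1668 and 1176 in liver and at 0, 4, 24 and 48 h. Nfkbiz, which encodes IkB zeta, a cofactor needed for Lcn2 induction in mouse cells, averaged 777, 1750, 6422, 3185 and 522. Irak3, an inhibitor of the pathway, averaged 145, 142, 1045, 1683 and 1298, and Tlr4, the endotoxin receptor, 104, 88.9, 9.43, 24.1 and 9.15. The means of Tlr4 lay near or below the array medians in every group, so the size of its change rests on dim signals.

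Cebpa, the C/EBP factor of quiescent hepatocytes, averaged 6642 in liver, 5445 at 0 h, 3392 at 4 h, 1256 at 24 h and 1323 at 48 h, and had a log2 fold change of -2.40 at 24 h vs. liver (SE 0.30, adjusted p = 2.75e-05). Of 9 other C/EBP and related factors measured (of 10 written), 3 were higher and 2 lower at 4 h, 3 and 2 at 24 h, and 0 and 3 at 48 h vs. liver, with medians of 0.20, -0.26 and -0.03. Over all genes, 46.2%, 47.6% and 47.9% were called at these times, with medians of -0.25, 0.00 and 0.04. Atf4, a factor of the stress response, averaged 6238, 7310, 14870, 10450 and 7111, Cebpg, a partner of other C/EBP proteins, 1951, 2187, 2882, 3071 and 2137, and Nfil3, a circadian repressor, 1713, 2169, 806, 716 and 490. All 8 genes written for the glucocorticoid receptor and its targets were measured, and 1 was higher and 2 lower at 4 h, and 1 and 3 at both 24 and 48 h, with medians of 0.11, -0.40 and -0.61. Fkbp5, a target of the receptor, averaged 403 in liver, 355 at 0 h, 3569 at 4 h, 1987 at 24 h and 2124 at 48 h. Tsc22d3, also a target, averaged 3580, 3594, 1434, 1727 and 2410, and Nr3c1, the receptor, 3724, 3655, 2169, 1333 and 1141.

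Markers of Kupffer cells, sinusoidal endothelium and erythroid cells had lower summed signals in culture than in liver, whereas those of stellate cells and cholangiocytes went in both directions. The summed signal of 10 Kupffer cell markers (of 13 written) was 18910 to 25490 in liver, 9944 to 14040 at 0 h, 5550 to 10950 at 4 h, 4523 to 9202 at 24 h and 2106 to 4658 at 48 h. That of 9 sinusoidal endothelial markers (of 10 written) was 14150 to 17520 in liver, 8696 to 12800 at 0 h, 3015 to 5880 at 4 h, 1703 to 3227 at 24 h and 364 to 865 at 48 h. The 9 stellate cell markers summed to 5229 to 11330 in liver, 2383 to 6148 at 0 h, 631 to 2029 at 4 h, 2270 to 2697 at 24 h and 4848 to 6656 at 48 h. Vs. liver 46.2%, 47.6% and 47.9% of all genes were called at 4, 24 and 48 h. Of the stellate cell markers 0 were higher and 7 lower at 4 h, and 2 were higher and 4 lower at both 24 and 48 h. The higher ones were Tagln, an actin-binding protein, which averaged 92.6 in liver, 10.5 at 0 h, 4.44 at 4 h, 854 at 24 h and 3633 at 48 h, and Acta2, smooth muscle actin, with 237, 120, 273, 607 and 830 in these groups. Lrat, which esterifies retinol, averaged 887, 471, 90.6, 46.7 and 23.5, Col3a1, a collagen chain, 6399, 3009, 565, 292 and 602, and Pdgfrb, a growth factor receptor, 272, 172, 23.1, 42.1 and 64.0. The 4 erythroid markers measured (of 8 written) summed to 190 to 1719 at 0 h, against 7722 to 58680 in liver. Of the 3 cholangiocyte markers measured (of 7 written), 1 was higher and 1 lower at each of 4, 24 and 48 h vs. liver. Epcam, an adhesion molecule, made up most of their sum, which was 994 to 1032 in liver, 956 to 1102 at 0 h, 1892 to 3138 at 4 h, 1626 to 1903 at 24 h and 2204 to 3133 at 48 h, and averaged 791, 896, 2312, 1640 and 2409. Krt19, a keratin of bile duct cells, averaged 153, 89.5, 51.2, 12.9 and 26.8, and Sctr, the secretin receptor, 59.0, 18.2, 37.3, 100.4 and 60.4. The part of these cell types in the changes of Lcn2, A2m, Lbp and Cebpd was not tested.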

How the data were processed

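RNA of 15 samples was measured on 43 arrays. The authors deposited linear MAS5 signal intensities, scaled to a trimmed mean of 500, 1 column per technical array, and left out 1 array at 4 h and 1 at 48 h. The study's methods name the MAS 5.0 algorithm of Affymetrix Command Console for these arrays, and the submitters' processing notes list MAS5 and the affy package. Of 31099 probe sets, 57 are controls, 20832 list 1 gene in the platform annotation, 436 list several and 9780 none (6 controls also list a gene). A probe set was used if it exceeded the median of its array 5 or more times (10% of arrays), which left 19013, and 14565 with 1 gene.

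Intensities were taken to log2 with no offset and technical arrays averaged, giving n = 3 rats per group. The small number of rats and arrays limits the precision. Groups were compared with limma 3.58.1 in R 4.3.3 (lmFit, eBayes), with no term for the rat and Benjamini-Hochberg adjustment within each of 9 comparisons over 10649 genes. The procedure was tested on simulated data, with changes at 48 h only, read at 48 h vs. 24 h. Those data had no effect of the rat, so the test did not cover samples that share a rat. They also had changes in few genes, so it did not cover comparisons such as 4, 24 and 48 h vs. liver, with 46.2%, 47.6% and 47.9% called. The smallest exact permutation p for 3 rats per group is 0.1 where the pairing of samples by rat is ignored, and larger where it is kept. The rats of a group are separate animals. The same rat gave a sample to each group, and residuals from the group means had a median r of 0.34 between samples of 1 rat (30 pairs) and -0.18 between rats (60 pairs), so the rat was also fitted as a block. Deviations from a mean of 3 rats cancel within a group, so the second value largely follows from the first and is not separate evidence. The liver of rat 1 had a median r of 0.00 with the RPH samples of rat 1 and 0.20 with those of rat 2, and the liver of rat 2 had -0.06 with rat 2 and 0.09 with rat 1, so these livers were also exchanged or left out. Their labels were kept.

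The members and the 13 gene lists, written from general knowledge, were chosen with earlier results of these data known. The named genes were the 9 members, up to 4 called genes with the largest change in each list (at 24 h vs. liver, or at 4 h for the IL-6, IL-1 and glucocorticoid lists), the 2 genes most correlated with each member, and markers. Fga, Fgg, Alb, Ttr, Hnf4a, Cyp2e1, Cps1, Tat and single stellate and cholangiocyte markers were named after their values were seen. Alternatives covered quantile normalization, centring, an offset of 32, other filters, 1 technical array, the block, the groups fitted, the prior variance, the threshold and samples left out. Gene positions and promoters are from RefSeq (GRCr8).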

Additional observations from a re-analysis of the deposited data

How the results depend on the processing

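The 63 changes of the 9 genes (against liver and between successive times) were recomputed under 31 alternatives. Of 1953 results, 1791 kept their direction and their side of the threshold, 74 lost the call, 30 gained it and 58 changed sign. The changes of Lcn2, A2m, Lbp and Cebpd at 4, 24 and 48 h vs. liver kept their call under all of them. Centring each array on its median moved the median of all genes from 0.04 to 0.43 at 48 h vs. liver and from 0.00 to 0.42 at 24 h, and only 4 members were then called at 48 h. For that comparison 5 were called with 1 technical array, 5 with only the 2 groups in the fit, 4 at an adjusted p under 0.01, and 5 without the livers of rats 1 and 2. The cause was not tested. At 48 h vs. 24 h 1 member, A2m, was called with an offset of 32, with the 50% filter, with the trended prior, with the replicate block and with the block and the livers of rats 1 and 2 exchanged. In the last of these, 1 member was called at 0 h vs. liver, Lcn2 (-2.11, adjusted p = 0.0218). The replicate block also gave 6 members at 24 h vs. liver and 5 at 4 h vs. 0 h, and it changed no other call of a member. Leaving out a rat or a sample gave 4 to 8 members at 48 h vs. liver, 0 to 1 at 48 h vs. 24 h, 4 to 5 at 4 h vs. liver, 4 to 6 at 24 h vs. liver, 3 to 5 at 4 h vs. 0 h, 2 to 3 at 24 h vs. 4 h, 5 to 7 at 24 h vs. 0 h, 5 to 6 at 48 h vs. 0 h and 0 in all fits at 0 h vs. liver. Of 1260 list counts, 90 moved by over 1.5 times.

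Of the values whose sign changed, only those of Hp and Hpx at 48 h vs. liver had been called. Quantile normalization gave, vs. liver at 0 h, -0.0211 for Lbp, -0.0434 for A2m and 0.0259 for Orm1, at 4 h 0.0154 for Hp and 0.0279 for Hpx, at 24 h 0.0933 for Hp and 0.11 for Hpx, and at 48 h 0.11 for Hp and 0.12 for Hpx. It gave 0.078 for Hp, 0.0784 for Hpx and 0.203 for Orm1 at 24 h vs. 4 h, and 0.00714 for Lcn2, 0.00853 for Hpx and 0.0164 for Hp at 48 h vs. 24 h. Centring gave, vs. liver, 0.30 for Orm1, 0.22 for Hp and 0.20 for Hpx at 0 h, 0.39 for Hp and 0.37 for Hpx at 4 h, and 0.17 for Hp and 0.19 for Hpx at 24 h. With 1 technical array A2m had -0.0526 at 24 h vs. 4 h and Hpx 0.00587 at 4 h vs. liver. Without the livers of rats 1 and 2, Lbp had -0.0547, Crp -0.112 and A2m -0.38 at 0 h, and Hp 0.00456 at 4 h vs. liver.

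Leaving out a rat or a sample turned the sign of further values, none of them called, which then ranged from -0.198 to 0.25 for A2m, -0.152 to 0.0336 for Orm1, -0.187 to 0.232 for Crp and -0.138 to 0.266 for Lbp at 0 h vs. liver. The range was -0.17 to 0.00351 for Hp, -0.181 to 0.0651 for Hpx and -0.0283 to 0.431 for Crp at 4 h vs. liver. The range was -0.00759 to 0.253 for Hp, -0.0136 to 0.226 for Hpx and -0.00313 to 0.265 for Crp at 4 h vs. 0 h. The range was -0.0449 to 0.173 for A2m, -0.164 to 0.102 for Orm1 and -0.504 to 0.0844 for Cebpd at 24 h vs. 4 h. The range was -0.3 to 0.0319 for Lcn2, -0.395 to 0.0527 for Orm1, -0.334 to 0.0342 for Hp and -0.295 to 0.0229 for Lbp at 48 h vs. 24 h.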
